A study of Mus musculus with 6 samples.

Results

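Protocadherins are cell surface adhesion proteins of the cadherin superfamily that brain cells use to recognise and bind one another. The genes described here were chosen by name, as every gene of the deposited nuclear count tables whose symbol begins with Pcdh, which gave 69 of the 32286 genes in the tables. Of these, 57 belong to the clustered families, with 14 Pcdha, 22 Pcdhb and 21 Pcdhg genes side by side on chromosome 18, and 12 are non-clustered genes spread over the genome. In the mm10 annotation the Pcdha genes lie between positions 36930184 and 37187661, the Pcdhb genes between 37264938 and 37524479, and the Pcdhg genes between 37661793 and 37841873. Together the 69 genes took 1541421 of 338270953 unique molecular identifiers (UMIs, single counted RNA molecules), or 0.456%.

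Nuclei came from whole cerebella of 12 week old mice on the C57Bl6 background, 3 Pcp2-ATXN1[82Q] mice (SCA1) and 3 wild-type (WT) littermates. SCA1 mice carry a human ATXN1 transgene whose CAG repeat is expanded and which the Pcp2 promoter drives, and are a model of spinocerebellar ataxia type 1. That promoter is active in Purkinje cells (PC); the other cerebellar cells are not meant to carry the mutant protein. The 45473 nuclei were given cell type names by the study with SingleR. The 13 names with at least 10 nuclei in each of the 6 mice were analysed, and counts were summed per mouse and name before any comparison.

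In the clustered families each gene is a variable first exon with its own promoter. Pcdha and Pcdhg first exons are spliced to constant exons shared within their family, whereas Pcdhb genes consist of the variable exon alone. A neuron switches on a small, mostly random set of these isoforms, and cells with matching sets recognise each other, which lets the dendrites of a Purkinje cell avoid one another. The C-type isoforms Pcdhac1, Pcdhac2, Pcdhgc3, Pcdhgc4 and Pcdhgc5 lie at the ends of their clusters and are less random in their use. The non-clustered genes fall into delta-1 (Pcdh1, Pcdh7, Pcdh9, Pcdh11x), delta-2 (Pcdh8, Pcdh10, Pcdh17, Pcdh18, Pcdh19) and others (Pcdh12, Pcdh15, Pcdh20), and are named with a role where one is well established.

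The mice yielded between 3354 and 10897 nuclei and between 18916647 and 98366627 UMIs each, with median depths from 2246.5 to 7253 UMIs per nucleus. Any pair of mice shared 7 to 44 nuclear barcodes. Human ATXN1, which the study had added to its reference, had 12, 15 and 19 UMIs in the PC nuclei of SCA1 mice 1 to 3 and 0 UMIs in the PC nuclei of each WT mouse, which allows up to 3 counts or a scaled level of 0.926 to 3.62. In granule neurons ATXN1 was counted at a similar low level in both genotypes, with 37, 36 and 39 UMIs in SCA1 mice and 28, 16 and 14 in WT mice. The summed marker genes of each studied type were highest in the nuclei that carried its name, with 60212 ± 12612 CPM (counts scaled to a common library total) of PC markers in PC nuclei (mean ± SD, n = 6 mice). The same held for granule neurons (GN), Bergmann glia (BG, named Astrocyte.Gja.Slc1a3), velate astrocytes (VA, Gja1.Htra1) and oligodendrocytes (OL, Oligodendroyte.Trf.Il33). The nuclei named Endothelial_Tip.Dcn.Nnat went against their name: fibroblast-like markers summed to 1131 CPM and mural markers to 389 CPM there, against 110 CPM for endothelial markers. They are called the Dcn.Nnat nuclei below. Golgi cell markers led in the Lgi2 nuclei (688 CPM) and molecular layer interneuron markers in the Cadm1 nuclei (6401 CPM), with the Rab3b nuclei next (5174 CPM). Unipolar brush cell markers were at 3738 CPM in the Sln nuclei and at 3683 CPM in PC, so that list did not single out the former. No list settled the Nrgn and Chrm2 nuclei, and the neuronal names are used as given.

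Promoters are shown for the 4 non-clustered genes with a RefSeq promoter entry whose level in PC nuclei was higher in every SCA1 mouse than in every WT mouse (values below), so that their sequence context can be read beside those levels. Each line gives the 250 bases before the start of the RefSeq entry, 5′ to 3′ on the coding strand, from RefSeq on GRCm38.p6 (the build also called mm10). Capitals mark CGCT and its reverse complement AGCG, the core of the element found in the promoters of clustered protocadherins.
Pcdh10: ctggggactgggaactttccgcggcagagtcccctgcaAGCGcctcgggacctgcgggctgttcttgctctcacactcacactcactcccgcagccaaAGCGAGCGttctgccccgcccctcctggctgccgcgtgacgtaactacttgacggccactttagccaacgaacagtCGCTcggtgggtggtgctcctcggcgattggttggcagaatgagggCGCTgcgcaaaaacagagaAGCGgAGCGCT
Pcdh17: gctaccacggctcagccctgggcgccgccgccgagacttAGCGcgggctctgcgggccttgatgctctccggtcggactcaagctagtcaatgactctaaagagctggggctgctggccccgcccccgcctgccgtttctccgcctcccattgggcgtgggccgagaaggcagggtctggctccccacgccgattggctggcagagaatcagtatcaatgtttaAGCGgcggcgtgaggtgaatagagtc
Pcdh19: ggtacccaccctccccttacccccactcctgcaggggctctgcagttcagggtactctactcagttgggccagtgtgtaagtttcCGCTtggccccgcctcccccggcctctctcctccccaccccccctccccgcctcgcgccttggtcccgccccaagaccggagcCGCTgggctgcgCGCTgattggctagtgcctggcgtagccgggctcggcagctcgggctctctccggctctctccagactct
Pcdh7: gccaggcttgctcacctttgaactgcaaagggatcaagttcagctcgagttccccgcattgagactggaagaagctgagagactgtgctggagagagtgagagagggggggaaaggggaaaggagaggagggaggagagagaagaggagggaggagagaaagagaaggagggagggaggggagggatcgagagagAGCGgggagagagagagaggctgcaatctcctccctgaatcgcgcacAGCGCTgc
These windows lie at chr3:45378148-45378397 (+ strand), chr14:84443313-84443562 (+ strand), chrX:133688994-133689243 (- strand) and chr5:57717831-57718080 (+ strand). The Pcdh10 window held 8 matches over both strands (overlapping matches counted), the Pcdh17 window 2, the Pcdh19 window 3 and the Pcdh7 window 3. Their GC contents were 63.2, 64.8, 69.2 and 58.4%, against a median of 52.4% over all promoters. The motif is short: 55.7% of 32851 promoters of this length held it, as did 10 of 10 entries for 9 of the 12 non-clustered genes. The Pcdh7 window reaches past 57717967, where the mm10 annotation used for the members starts that gene, so its last part lies inside the gene as annotated there. A match is a run of letters and says nothing of binding.

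Among the delta-1 genes, Pcdh9 had the highest CPM of all protocadherins in 12 of the 13 names, the Dcn.Nnat nuclei being led by Pcdh7, and held 84.7% of all protocadherin UMIs. Its level was highest in OL, where it ran from 9930 to 19289 CPM over the 6 mice (13078 ± 3753, mean ± SD), followed by the Lgi2 nuclei with 8282 ± 2244 and BG with 7180 ± 2218 CPM. PC had 4657 ± 1388, GN 3733 ± 1329 and the Dcn.Nnat nuclei 500.3 ± 260 CPM. OL exceeded the next name in the order (adjusted p = 0.0023, edgeR quasi-likelihood test with Benjamini-Hochberg adjustment over all genes). That contrast called 58% of all genes, so a difference there was the usual case, and the names themselves were given from expression. The order of levels is therefore a description, and neighbours are called separate only where TMM factors and plain library sizes gave the same call. The printed CPM are scaled among the mice of each name. Factors set across all names were 0.58 to 0.81 in PC, which would raise PC levels against the other names, so the place of PC in an order of levels depends on the scaling. Pcdh9 spans 877 kb. Per kb of its own sequence it stood at 14.9 CPM in OL and 4.25 CPM in GN, where Pcdhga12, with 4.545 kb of its own, reached 6.55 CPM per kb.

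**Figure D1:**
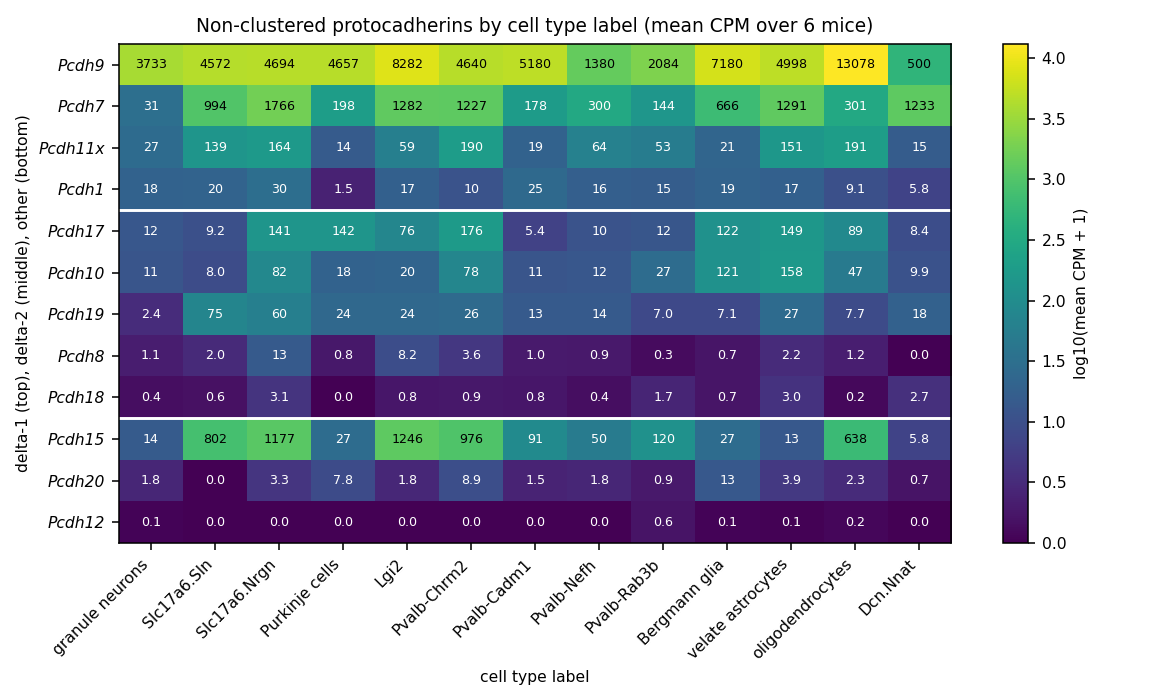
Mean level over 6 mice of each non-clustered protocadherin (rows) in 13 cell type names (columns), with the color as log10(CPM + 1), the mean CPM printed in each cell and genes grouped by subfamily. Pcdh9 runs from 500.3 CPM in the Dcn.Nnat nuclei to 13078 in OL, while Pcdh7, Pcdh15 and Pcdh17 are high in some columns and at 30.6, 14.2 and 11.9 CPM in GN.

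Pcdh7, another delta-1 gene, was lowest in GN and far higher in most other neurons and in astrocytes. Its level was 30.6 ± 12.2 CPM in GN, with a range of 13.8 to 44.9 CPM over mice, against 144 ± 38.0 in the Rab3b nuclei, the next name up (adjusted p = 9.4e-10, edgeR). That contrast called 35.8% of all genes. The Nrgn nuclei, whose full name also holds Slc17a6, had 1766 ± 546 CPM. VA, Lgi2, Dcn.Nnat, Chrm2 and Sln nuclei held between 994 and 1291 CPM, and no neighbouring pair among these 6 names was separated. BG with 666 ± 128 CPM lay above OL with 301 ± 95.3 (adjusted p = 2.2e-05, where 41.6% of genes were called). PC had 198 ± 109 CPM. Pcdh11x, the X-linked delta-1 gene, had 139 to 191 CPM in OL, Chrm2, Nrgn, VA and Sln nuclei, with 14.4 ± 6.53 CPM in PC and 15.0 ± 7.32 in Dcn.Nnat nuclei, a pair that was not separated. Pcdh1 was low throughout, from 29.8 ± 3.79 CPM in Nrgn nuclei to 1.46 ± 1.27 in PC, where it had 21 UMIs in 6 mice.

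Several delta-2 genes bind the WAVE complex, which builds actin networks. Pcdh17 was present in 7 names at 76.1 to 176 CPM and at 5.4 to 11.9 CPM in the other 6, with a step of 2.61 on the log2 scale between the Lgi2 nuclei and GN (adjusted p = 6.0e-12, where 54.3% of genes were called). PC, at 142 ± 38.1 CPM, was among the high ones, as were Chrm2, VA, Nrgn, BG and OL, and no neighbours within the high group were separated. Pcdh10 was highest in the astrocytes, with 158 ± 41.0 CPM in VA (101 to 214 over mice) and 121 ± 18.7 in BG (95.5 to 137). BG lay above the Nrgn nuclei, which had 81.8 ± 5.03 CPM (adjusted p = 0.0069, where 59.8% of genes were called), and PC had 18.5 ± 8.99. Pcdh19, mutated in a form of epilepsy, was highest in both Slc17a6 names, with 74.5 ± 18.3 CPM in Sln and 59.7 ± 12.0 in Nrgn nuclei, and lowest in GN with 2.38 ± 1.64. The Nrgn nuclei exceeded VA, the next name (adjusted p = 7.8e-05, where 59.1% of genes were called). Pcdh8 reached 13.4 ± 12.0 CPM at most, in Nrgn nuclei, and Pcdh18 3.15 ± 2.13.

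Of the other genes, Pcdh15, a part of the tip link of hair cells in the inner ear, differed between the names. Lgi2 nuclei held 1246 ± 326 CPM (991 to 1812 over mice), Nrgn nuclei 1177 ± 373, Chrm2 nuclei 976 ± 243, Sln nuclei 802 ± 228 and OL 638 ± 329. The next name, Rab3b, held 120 ± 67.6 CPM (adjusted p = 4.0e-09 against OL, where 47.2% of genes were called), and BG, GN, VA and the Dcn.Nnat nuclei were at 5.83 to 27.1 CPM. The lowest OL mouse, at 327 CPM, was above the highest Rab3b mouse, at 228 CPM, but the OL level included a small group of nuclei rich in Pcdh15, described next. Pcdh20 was highest in BG, at 12.6 ± 4.64 CPM, and Pcdh12 had 33 UMIs in all nuclei. Over all 78 pairs of names, Pcdh15 differed in 60, Pcdh10 in 58, Pcdh7 in 57, Pcdh9 and Pcdh11x in 52 each, Pcdh17 in 51 and Pcdh19 in 48, counting only calls made under both scalings. Pcdh1 differed in 39 and Pcdh20 in 29. The clustered isoforms tested ran from 4 pairs (Pcdhb20) to 39 (Pcdha11.1), and for Pcdhb20 the direction differed between scalings in 16 pairs. Across these contrasts the share of all genes called ran from 0.971% (Nefh against Rab3b) to 63.1%.

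The OL nuclei held a small group that carried much of the Pcdh15 and Pcdh7 signal. In each mouse, clusters of the study's own clustering whose Pdgfra level was above their Mog level held 6 to 20 OL nuclei, 74 in all, against 1299 nuclei in clusters with Mog above Pdgfra and 11 in clusters of under 5 OL nuclei, which were left out. Levels in these groups of nuclei are CPM on plain totals, without TMM factors. Of the fixed markers of oligodendrocyte precursors (polydendrocytes), the 3 that the split did not use were also high in the 74 nuclei, which are called polydendrocyte-like: Lhfpl3 was at 5212 to 11010 CPM over mice, Vcan at 1331 to 3031 and Cspg4 at 57.7 to 454, against 33.1 to 72.0, 0 to 9.16 and 1.41 to 13.6 in the Mog-rich nuclei. Their Pcdh15 level was 2527 to 5343 CPM (median 3560), against 217 to 444 (median 250) in the Mog-rich nuclei, and the ranges did not overlap. Pcdh7 was at 1585 to 2477 CPM against 78.2 to 187, Pcdh11x at 521 to 937 against 67.8 to 208, Pcdh17 at 136 to 750 against 54.3 to 87.3, and Pcdh10 at 83.2 to 229 against 26.8 to 57. Pcdh9 went the other way, with 4770 to 7317 CPM in the polydendrocyte-like and 10776 to 19594 in the Mog-rich nuclei. The few polydendrocyte-like nuclei gave 34.3 to 78.0% of the Pcdh15 UMIs and 30.9 to 77.9% of the Pcdh7 UMIs counted under the OL name. These values are a description without a test, because the clusters were made from the expression of the same nuclei.

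**Figure D2:**
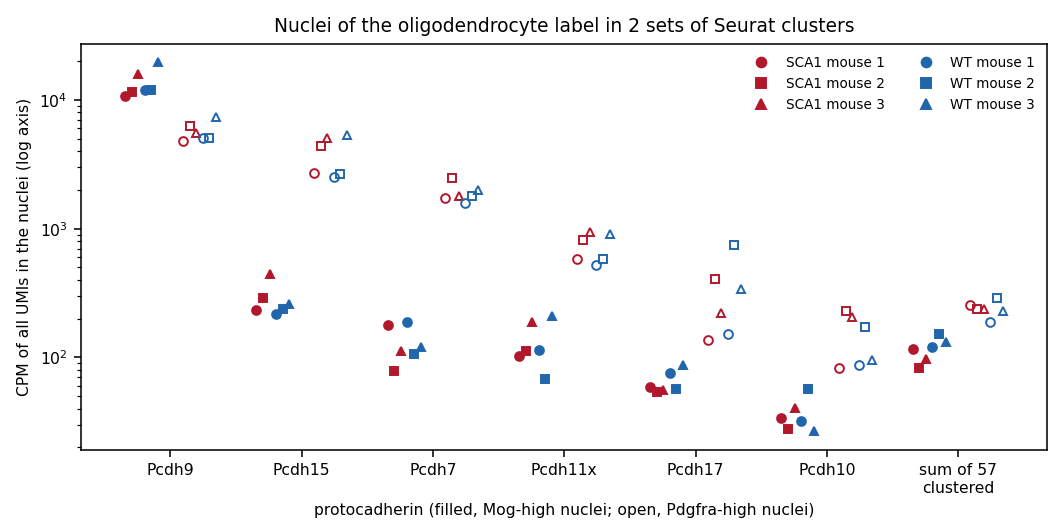
Level in CPM (log axis) of 6 protocadherins and of the summed clustered genes in OL nuclei of clusters with Mog above Pdgfra (filled) and with Pdgfra above Mog (open), 1 point per mouse. Pcdh15 runs from 217 to 444 CPM in the former and from 2527 to 5343 in the latter, and Pcdh9 is the single gene shown that is lower in the latter.

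The clustered genes were expressed thinly and in every cell type, and the family they came from depended on the cell. They held 64239 UMIs in all. Their total was 130 CPM in OL, 204 in PC and 222 in BG. The mean Pcdha sum over mice was 20.4 to 35.7 CPM in the 9 neuronal names, highest in PC, and 2.58 to 8.22 CPM in the 4 non-neuronal names. Single mice overlapped: the highest non-neuronal value was 13.3 CPM (OL, WT mouse 2) and the lowest neuronal value 0 (Sln, WT mouse 2). BG had the smallest Pcdha sum: 4.41, 3.54 and 2.21 CPM in SCA1 mice and 2.62, 0 and 2.70 in WT mice, where GN had 14.4 to 26.6 CPM. Family shares are shares of counts and may differ from shares of RNA, because the families differ in how much sequence their genes share, as given below. Pcdhb made up 54.7 ± 13.2% of clustered counts in the Chrm2 nuclei and 52.4 ± 4.23% in the Cadm1 nuclei, but 27.4 ± 7.12% in GN and 21.5 ± 10.3% in the Dcn.Nnat nuclei. Pcdhg made up more of the clustered counts than the other families together in GN (62.4 ± 5.86%), BG (55.6 ± 4.09%), VA (56.4 ± 8.08%), OL (58.1 ± 8.12%), Sln (52.7 ± 15.8%) and Dcn.Nnat nuclei (76.7 ± 10.4%). Across the 13 names the log2 sums of Pcdha and Pcdhg had a Pearson correlation of -0.62, Pcdha and Pcdhb 0.38, and Pcdhb and Pcdhg -0.48, as a description over names that share libraries.

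**Figure D3:**
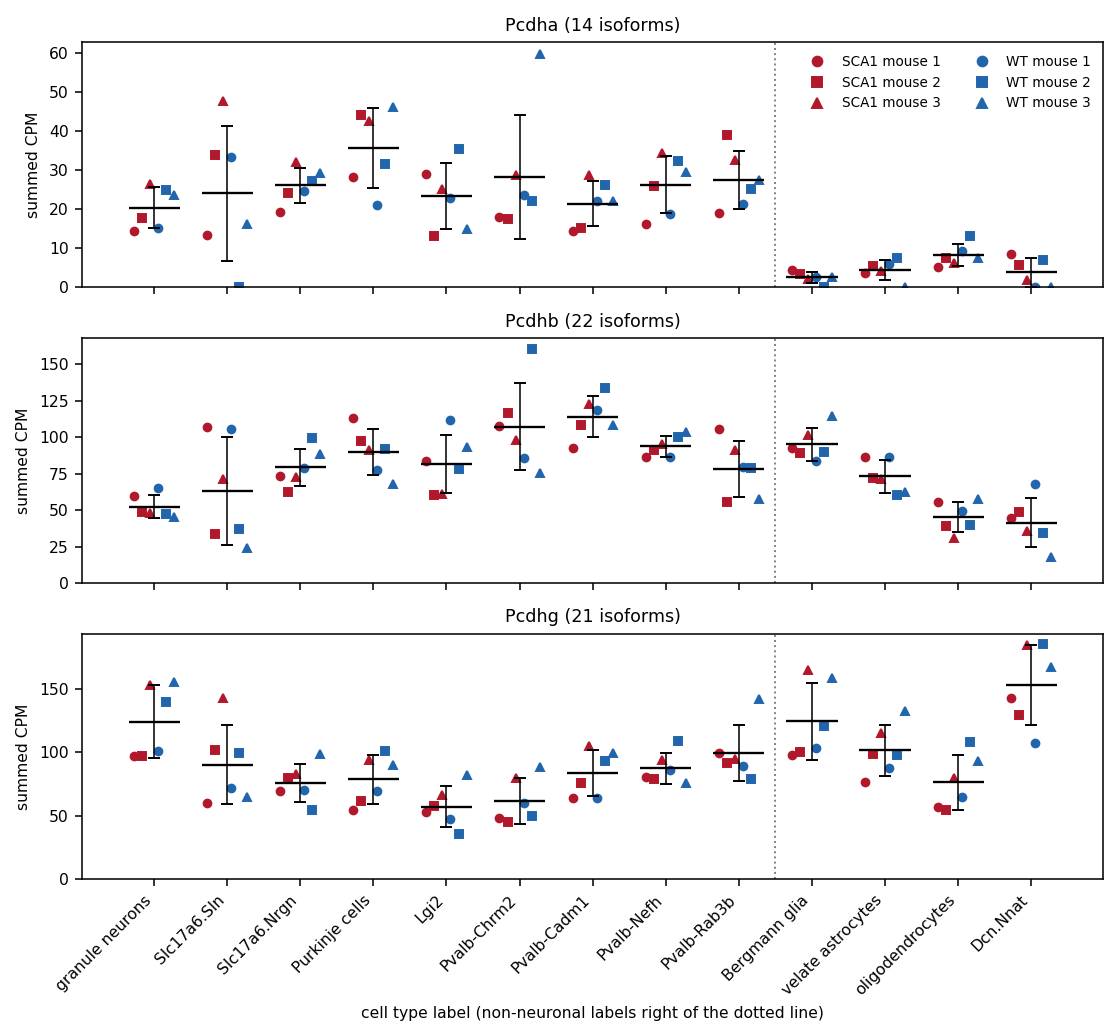
Summed Pcdha, Pcdhb and Pcdhg level in CPM for each of 13 cell type names, with a line for the mean of 6 mice, bars for the SD and 1 point per mouse. The mean Pcdha sum stands at 20.4 to 35.7 CPM in the neuronal names and at 2.58 to 8.22 CPM in OL, BG, VA and Dcn.Nnat nuclei. Single mice overlap.

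Single isoforms followed the same lines. The commonest Pcdha row, 1 of 2 rows with the symbol Pcdha11 whose gene identifiers the tables do not give, had 4.95 ± 2.26 CPM in GN and 6.99 to 9.65 in the other neurons, against 1.78 ± 0.79 in OL (adjusted p = 0.00081 for GN over OL, edgeR, where 51.7% of genes were called). BG and VA had 0.42 to 0.55 CPM, and with TMM factors GN exceeded BG by 2.91 on the log2 scale in this row, Pcdha11.1 (adjusted p = 6.9e-07, where 58.9% of genes were called and 31.7% were higher in GN). Pcdha4 reached 3.61 CPM at most. Pcdhb14 was the leading isoform of BG, at 29.8 ± 10.5 CPM (17.8 to 46.8 over mice), and had 10.9 ± 3.88 in PC and 7.34 ± 0.55 in GN. Pcdhb17 was highest in Cadm1 nuclei, at 18.0 ± 6.95 CPM. Pcdhga12 was seen in all mice in all 13 names, with 29.8 ± 3.56 CPM in GN (25.1 to 33.3 over mice), 29.1 ± 10.2 in Dcn.Nnat nuclei, 11.2 ± 3.61 in PC and 8.76 ± 4.01 in Lgi2 nuclei. In Pcdhga12, GN exceeded the Nefh nuclei by 0.99 on the log2 scale (adjusted p = 9.8e-08, where 47.3% of genes were called). Pcdhgb4 had 12.7 ± 6.72 CPM in Dcn.Nnat nuclei and 3.35 ± 1.55 in PC. Of the C-type isoforms, Pcdhac2, which serotonergic axons need for their spacing, was highest in PC at 8.87 ± 5.01 CPM, and Pcdhac1 did not pass 1.55 CPM anywhere. Pcdhgc3 had 10.1 ± 4.15 CPM in BG and 0.58 ± 0.94 in Cadm1 nuclei. Pcdhgc4, which neurons need for survival, had 13.2 ± 2.61 CPM in Rab3b nuclei and 13.2 ± 3.75 in BG, and Pcdhgc5 8.60 ± 5.38 in Rab3b nuclei. Reads that fall on the constant exons cannot tell the Pcdha or the Pcdhg isoforms apart. The shared sequence is a median of 53.6% of exon length in Pcdha, 44.8% in Pcdhg and 38.5% in C-type genes, against 0% in Pcdhb. Levels of single Pcdha and Pcdhg isoforms are therefore uncertain. If reads on shared sequence went uncounted, Pcdha and Pcdhg sums, family shares and isoform counts per nucleus were lowered against Pcdhb. The size of any such effect was not tested. Pcdhb1 had 1 UMI in all nuclei.

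Per nucleus, few isoforms were caught. After each nucleus of at least 3000 UMIs was thinned to 3000 UMIs, a GN nucleus held 0.57 ± 0.08 clustered isoforms with a UMI (mean of 6 mice ± SD), of which 0.36 were Pcdhg, and 42.9 ± 3.68% of GN nuclei held any. This left out 5721 of 37532 GN nuclei. Over all names, 4784 of the 6710 nuclei of WT mouse 2 lay under 3000 UMIs, against 0 in SCA1 mouse 1 and WT mouse 1. The thinned values of WT mouse 2 therefore rest on its deeper nuclei. A PC nucleus held 0.57 ± 0.13, and the range over names was 0.38 ± 0.25 in Sln to 0.67 ± 0.12 in Cadm1 nuclei. Without thinning the values were 1.12 in GN and 5.57 in PC, whose median depth was 36466.5 UMIs against 5923 in GN. The number of isoforms a cell uses was therefore not measurable at this depth. Between genotypes the thinned count did not reach p < 0.05 in any name, which 3 against 3 mice cannot do: the smallest exact p is 0.1, seen in OL with 0.30 ± 0.01 in SCA1 and 0.50 ± 0.18 in WT mice (two-sided exact permutation test). Of the OL difference of -0.20 isoforms, -0.097 was left without WT mouse 2. At 1500 UMIs the OL difference was -0.056 (exact p = 0.2) and without thinning -0.087 (exact p = 0.7), while at 1500 UMIs GN and Nefh nuclei had the exact p of 0.1.

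In PC, the cells in which the Pcp2 promoter drives the transgene, no protocadherin passed the test for a genotype difference. Of the 8 non-clustered genes tested, 5 (Pcdh7, Pcdh10, Pcdh11x, Pcdh17 and Pcdh19) were higher in every SCA1 mouse than in every WT mouse. In 1 (Pcdh20) every SCA1 mouse was lower with TMM factors, though not on plain library totals. Of 24 members with enough counts to test, 0 were called, as were 0 of 10517 genes (0% called, adjusted p at most 0.05, edgeR), while 5 members and 720 genes had an unadjusted p under 0.05. The members' median log2 fold change of SCA1 over WT was 0.42, against 0.02 over all genes, for the 24 that passed the filter on low counts. Without the filter it was 0.16 over 67 members, against 0.05 over all genes, and with each mouse left out 0.38 to 0.68, the highest being without SCA1 mouse 3, where 17 members were tested. All 3 SCA1 mice lay above all 3 WT mice for 7 of the 24, against 5.08% of all genes, and below for 1, against 5.04%. These values rest on 29 to 76 nuclei per mouse. The paper reports many genes changed in PC from a fit on single nuclei, and lower levels of several PC genes by RT-qPCR of whole cerebella. The 0 calls from sums of 3 against 3 mice therefore do not show that PC lacked a genotype difference. Scaling by library size alone moved the median of all genes to 0.20 and that of the members to 0.61.

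Pcdh7 and Pcdh10 had the largest differences in PC. Pcdh7 was at 246, 247 and 365 CPM in SCA1 mice 1 to 3 and at 144, 69.6 and 115 CPM in WT mice 1 to 3. The groups did not overlap, the SCA1 mice being higher with a log2 fold change of 1.39 (its SE was 0.29, and adjusted p = 0.140, edgeR). Pcdh7 UMIs were found in 56 of 65, 31 of 52 and 19 of 29 SCA1 nuclei and in 55 of 76, 15 of 41 and 12 of 29 WT nuclei. Without the nucleus of most Pcdh7 UMIs in each mouse the log2 fold change was 1.53 (adjusted p = 0.116). That nucleus held 8.38, 15.4 and 17.2% of the Pcdh7 UMIs in SCA1 mice and 25.6, 20.8 and 22.9% in WT mice. Taking it out thus lowers the WT mice more and itself widens the gap. Pcdh10, which takes part in the removal of synapses, was at 28.0, 24.3 and 27.3 CPM in SCA1 and 8.84, 13.1 and 9.46 CPM in WT mice. The difference was 1.40 on the log2 scale (SE 0.30, adjusted p = 0.171), from 80, 28 and 46 UMIs in SCA1 and 29, 10 and 9 in WT mice. The call depended on the tool, the filter and the model terms. Pcdh7 passed with DESeq2 (adjusted p = 0.0048), where 65 genes passed in all. DESeq2 gave Pcdh10 an unadjusted p of 0.0026 but no adjusted p, so it could not pass there. Pcdh7 (adjusted p = 2.3e-05) and Pcdh10 (0.0125) passed in edgeR without the filter on low counts, where 223 genes passed. Both also passed with a replicate block, described in the last section. Keeping only nuclei whose name led their cluster is nearest to the paper's own assignment. In PC it gave Pcdh7 a log2 fold change of 1.54 (adjusted p = 0.059, edgeR) and Pcdh10 1.39 (adjusted p = 0.170). There 1 of 10442 genes and 0 members passed. After thinning to 3000 UMIs, Pcdh7 had a UMI in 32.0% of PC nuclei and 5.12% of GN nuclei, and Pcdh10 in 5.50 and 3.09%.

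**Figure D4:**
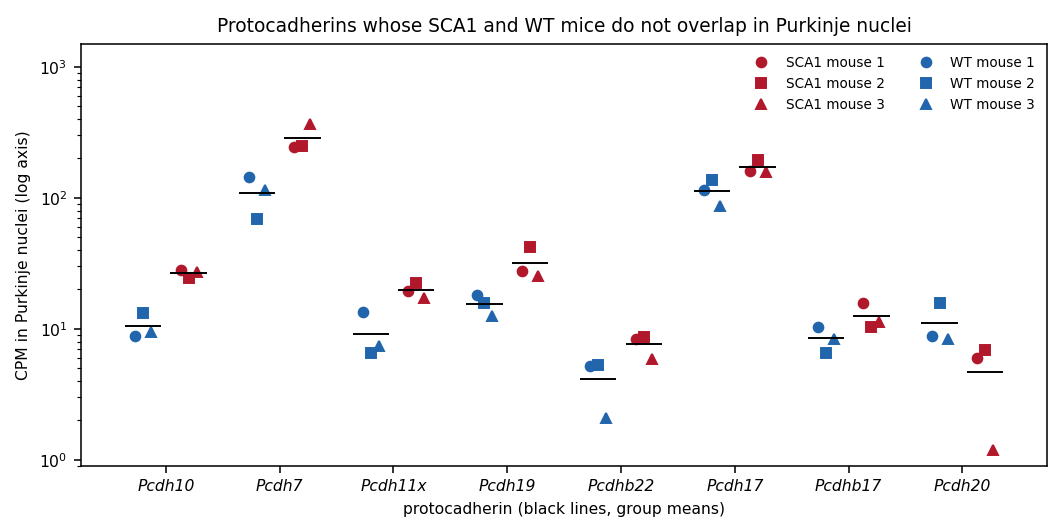
Level in PC nuclei of each mouse, in CPM on a log axis, for the 8 members whose SCA1 and WT mice did not overlap, with SCA1 and WT mice side by side. Black lines are group means. Pcdh7 runs from 246 to 365 CPM in SCA1 and from 69.6 to 144 in WT mice. In Pcdh20 the SCA1 mice are the lower ones on these TMM-scaled levels.

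The other 3 non-clustered genes in this direction had smaller gaps. Pcdh19 was at 27.6, 42.5 and 25.5 CPM in SCA1 and 18.3, 15.8 and 12.6 in WT mice (log2 fold change 0.97, SE 0.32, adjusted p = 0.459). Pcdh11x was at 19.6, 22.6 and 17.2 against 13.4, 6.56 and 7.35 CPM (log2 fold change 1.03, SE 0.35, adjusted p = 0.501). Pcdh17 was at 161, 194 and 157 against 114, 137 and 86.2 CPM (log2 fold change 0.60, SE 0.23, adjusted p = 0.575). Sequencing runs were inferred from library numbers, with mouse 1 of each group in run 1 and mice 2 and 3 in run 2. Within runs the direction of these 5 genes follows from groups that do not overlap, and the size varied: for Pcdh7 the log2 ratio was 0.77 in run 1 and 1.73 in run 2, and for Pcdh10 1.66 and 1.19. Pcdh9 and Pcdh15 overlapped between genotypes, at 4504 to 6489 against 2792 to 5834 CPM and at 17.4 to 29.6 against 25.0 to 38.1 CPM. Pcdh20 was the exception, at 5.94, 6.94 and 1.19 CPM in SCA1 and 8.84, 15.8 and 8.41 in WT mice (log2 fold change -1.16, SE 0.59, adjusted p = 0.806).

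The clustered genes of PC had no call. The filter on low counts left 8 of 22 Pcdhb, 2 of 14 Pcdha and 6 of 21 Pcdhg genes to test. It can keep a gene through the group in which that gene is high, so the directions describe the tested isoforms only. All 8 tested Pcdhb isoforms had a positive log2 fold change (median 0.56), as did both tested Pcdha rows (0.46 and 0.56). Of the 6 tested Pcdhg isoforms 0 did (median -0.36). In the other names with 3 or more tested Pcdhg isoforms, 3 of 21 were positive in GN (median -0.28), 2 of 9 in Nefh (-0.11), 3 of 8 in BG (-0.10), 2 of 6 in Nrgn (-0.17), 1 of 3 in VA (-0.17) and 2 of 3 in Rab3b nuclei (0.24). Pcdhb17 and Pcdhb22, the latter named after its values were seen, were the 2 whose mice did not overlap (adjusted p = 0.931 and 0.919, edgeR). Pcdhb17 was at 15.7, 10.4 and 11.3 CPM in SCA1 and 10.4, 6.56 and 8.41 in WT mice. Pcdhb22 was at 8.39, 8.68 and 5.93 against 5.18, 5.25 and 2.10 CPM. It did not pass the filter in the fit without the run term. The lowest Pcdhg values were those of the C-type isoforms, with log2 fold changes of -0.72 for Pcdhgc4, -0.58 for Pcdhgc5 and -0.45 for Pcdhgc3 and adjusted p of 0.852 or more. Summed, Pcdhb was 113, 97.2 and 91.3 CPM in SCA1 and 77.7, 91.9 and 68.3 in WT mice, Pcdha 28.3, 44.3 and 42.7 against 21.0, 31.5 and 46.2, and Pcdhg 54.9, 61.6 and 94.3 against 69.8, 101 and 90.4. Pcdhg sums also varied by library outside PC: in GN they were 97.0, 96.9 and 154 CPM in SCA1 and 101, 140 and 156 in WT mice, and in BG 98.2, 100 and 165 against 104, 121 and 159, with SCA1 mice 1 and 2 and WT mouse 1 low in both. The part of these libraries in the PC result was not tested.

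**Figure D5:**
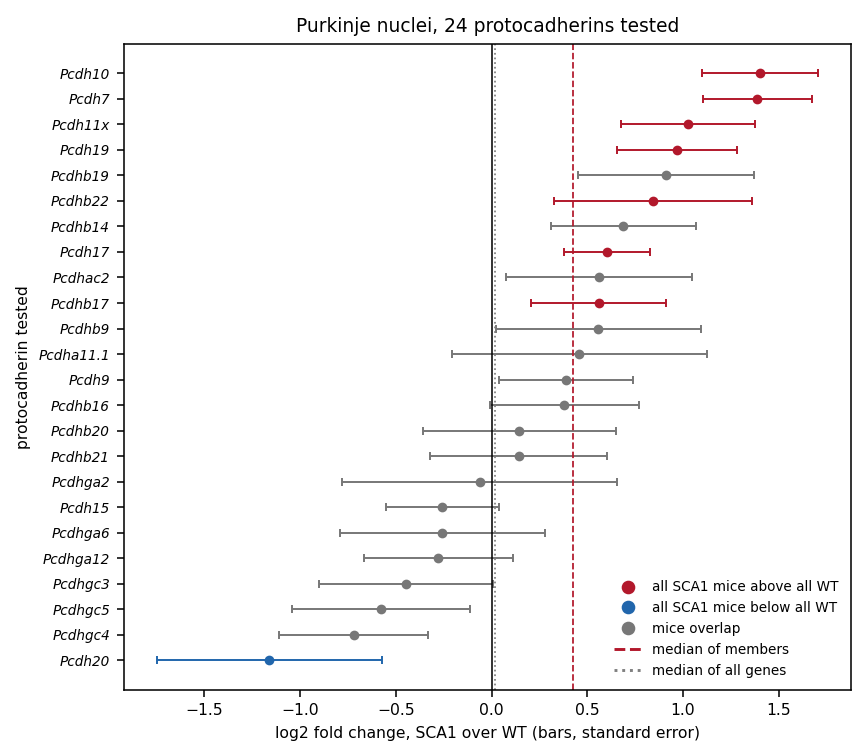
Log2 fold change of SCA1 over WT in PC nuclei for the 24 members tested, with bars for the standard error, ordered by fold change; dashed and dotted lines are the medians of the members (0.42) and of all genes (0.02). Pcdh10 and Pcdh7 lie at 1.40 and 1.39. All 8 tested Pcdhb isoforms (of 22) lie above 0 and all 6 tested Pcdhg isoforms (of 21) lie below 0. None has an adjusted p at most 0.05.

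Markers of astrocytes, where Pcdh7 and Pcdh10 are high, overlapped between the genotypes in PC nuclei. Pcdh7 was also high in neuronal names, at 1766 CPM in Nrgn, 1282 in Lgi2, 1227 in Chrm2 and 994 in Sln nuclei. No marker list settled the Nrgn and Chrm2 nuclei, so RNA from those nuclei was not checked in PC. The 5 Bergmann glia markers summed to 22.3 to 108 CPM in SCA1 and 65.5 to 125 in WT mice, and the 5 velate astrocyte markers to 24.6 to 112 and 14.5 to 92.6 CPM, with 0 genes of either list at 0 in all mice of a group. The 4 polydendrocyte markers summed to 710 to 857 CPM in SCA1 and 377 to 728 in WT mice, and of them Pdgfra, Cspg4 and Vcan did not exceed 3.95 CPM in any mouse, and the PC marker sum was 45043 to 66399 CPM in SCA1 and 58212 to 81271 in WT mice. The Golgi and Purkinje layer interneuron list did separate the genotypes, at 135 to 172 against 73.5 to 88.0 CPM, mostly through Klhl1 (named after its values were seen, 122, 158 and 148 against 59.6, 67.5 and 84.4 CPM), a gene PC express themselves. Its part in the protocadherin values was not tested.

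Whether the PC pattern differed from that of GN was tested as the difference between the 2 genotype effects within mice. Of 60 members tested, 0 were called (0% of 16043 genes called, edgeR). Of the members 5, and of all genes 745, had an unadjusted p under 0.05. Pcdh7 had a difference of 1.18 on the log2 scale between the effects (SE 0.36, adjusted p = 0.933) and Pcdh10 of 1.50 (SE 0.46, adjusted p = 0.892). Pcdh11x had 1.18 (SE 0.38, adjusted p = 0.996) and Pcdh9 0.67 (SE 0.22, adjusted p = 0.990). Pcdhgb7, at 0.62 CPM in PC, went the other way with -7.39 (SE 2.93). Without the filter on low counts 1 member was called, among 58 of 27239 genes.

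No protocadherin was called outside PC. Among GN, the name with the most nuclei, 67 of 69 members could be tested and 0 were called (0.00547% of genes called), with log2 fold changes between -0.82 and 0.33 and a median of -0.05. The other Pcdha11 row, Pcdhga2 and Pcdhga11 were lower in all SCA1 mice, against 1.71% of all genes, and 0 members were higher, against 1.59%. Pcdhga11, for example, was at 4.62, 5.39 and 4.93 CPM in SCA1 and 6.53, 7.46 and 5.62 in WT mice (adjusted p = 1). Pcdh17 had 19.2, 9.52 and 6.26 CPM in SCA1 and 22.6, 6.23 and 7.42 in WT mice, and the astrocyte marker Aqp4, named after its values were seen, had 97.1, 64.4 and 30.7 CPM against 91.3, 35.6 and 28.3 CPM. Both were highest in mouse 1 of each group, and the part of RNA from other cells in the low GN levels was not tested.

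The glia, in which the Pcp2 promoter is not expected to be active, had 0 members called among 11 tested in OL (0.00866% of genes called), 23 in BG and 14 in VA (0% called in both). In BG, Pcdh20 was at 10.5, 9.20 and 7.35 CPM in SCA1 and 12.2, 17.6 and 18.9 in WT mice, the log2 fold change being -0.71 (SE 0.37, adjusted p = 1). Pcdh20 was low in SCA1 mice in both BG and PC, which share their 6 mice, but in PC the groups overlapped on plain library totals. Also in BG, Pcdhb22 was below (log2 fold change -0.86, adjusted p = 1) and Pcdhb20 above (0.56) in all SCA1 mice, where 2.70 and 1.95% of genes were. In VA, Pcdhb14 was at 16.2, 16.2 and 11.8 CPM against 19.9, 27.6 and 18.7 (log2 fold change -0.51, SE 0.35, adjusted p = 1), where 2.51% of genes were below. In VA 0 members were above, against 2.12% of genes. In OL 0 members were above or below in all SCA1 mice, against 1.84 and 1.67% of genes, and with the polydendrocyte-like nuclei left out 9 members were tested and 0 called, where 1 of 11044 genes was called.

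The remaining neurons had 0 members called of 26 tested in Nefh, 23 in Nrgn, 11 in Rab3b, 9 in Chrm2, 8 each in Cadm1 and Lgi2 and 5 in Sln nuclei (0% of genes called in each), and of 4 in Dcn.Nnat nuclei. Pcdh7 was higher in all SCA1 mice in the Rab3b nuclei as well as in PC, at 146, 167 and 208 against 107, 117 and 121 CPM (log2 fold change 0.58, SE 0.23, unadjusted p = 0.024, adjusted p = 1), where 2.44% of genes were. Pcdh17 was at 138, 152 and 169 against 134, 127 and 127 CPM in Nrgn nuclei, where Pcdh9 was at 3044, 3973 and 4122 against 4722, 5570 and 6736 CPM (log2 fold change -0.61, SE 0.38, adjusted p = 1). Genes above or below in all SCA1 mice made up 2.70 and 2.69% there. Pcdh15 was at 118, 108 and 99.0 against 74.8, 75.5 and 72.1 CPM in Cadm1 nuclei (log2 fold change 0.55, SE 0.24, adjusted p = 1), where 2.77% of genes were above. No member was below in the Rab3b (2.6% of genes) or Cadm1 nuclei (2.79%). In these 5 further names no member separated the mice in either direction, where 1.98 and 1.9% of all genes were above and below in Nefh, 3.62 and 3.01% in Chrm2, 2.95 and 2.66% in Dcn.Nnat, 2.78 and 2.99% in Lgi2 and 3.69 and 3.53% in Sln nuclei.

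Genes that act with protocadherins were read from 4 lists in PC, again with 0 called. All SCA1 mice were above all WT mice for 5.08% of all genes in PC and below for 5.04%. Of 19 intracellular partners, the WAVE complex and kinases that bind protocadherin tails, 17 were tested and had a median log2 fold change of -0.04, with 1 above (Nckap1, named after its values were seen, 0.24) and 2 below in all SCA1 mice. Baiap2, a membrane-bending partner of the WAVE complex, was at 223, 210 and 228 CPM in SCA1 and 377, 436 and 354 in WT mice (log2 fold change -0.82, SE 0.20, adjusted p = 0.226). For Cyfip2, a subunit of that complex, the log2 fold change was -0.48 (adjusted p = 0.706). Of 17 chromatin regulators of the clusters, such as CTCF and cohesin, 15 were tested with a median of 0.03. Of these, 0 were below and 2, the cohesin subunit Smc1a (log2 fold change 0.47, adjusted p = 0.876) and the histone methyltransferase Setdb1 (0.26, adjusted p = 0.998), were above in all SCA1 mice. Of 31 other cadherins, 21 were tested with a median of -0.14, with 1 above and 2 below in all SCA1 mice. Cdh13, a cadherin anchored in the membrane by a lipid, was at 13.3, 5.21 and 11.3 against 15.2, 17.1 and 48.3 CPM (log2 fold change -1.24, SE 0.49, adjusted p = 0.622), and for Fat4 the log2 fold change was 0.90 (adjusted p = 0.662). Of 11 catenins and other adhesion genes, 10 were tested with a median of 0.07 and none separated the mice.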

How the data were processed

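Nuclei of 6 whole cerebella were profiled with 10x 3′ libraries, 1 per mouse. The authors aligned reads with Cell Ranger (5.0.1 in the study's methods; the submitters' processing notes also name 4.0.0 and 6.0.1, with no role) to mm10 with human ATXN1 added, kept intronic reads, removed debris with DIEM, clustered with Seurat 4.0.4 and named nuclei with SingleR from DropViz. The deposited values are raw UMI counts per gene and nucleus. Counts including introns favour long genes, and 3′ reads blur isoforms that share an end.

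Counts were summed per mouse and name. Names with 10 or more nuclei in every mouse were tested with edgeR 4.0.16 (R 4.3.3; TMM factors, filterByExpr with a minimum count of 10 and total of 15, quasi-likelihood F-test, Benjamini-Hochberg adjustment over all genes, threshold 0.05) with genotype and sequencing run as terms. Runs were inferred from library numbers. Contrasts between names used mouse as a block. Levels are CPM on TMM-scaled totals, and marker, transgene, split oligodendrocyte and pooled levels on plain totals. DESeq2 1.42.0 and limma 3.58.1 served as alternatives, with other scalings, filters, nuclei and each mouse left out. The scripts were tested on simulated data. No doublet caller was run. Each group has 3 mice, so p-values measure the spread between these mice, and intervals and floors of 3 counts cover counting error only.

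The members, gene lists and tests were chosen with earlier results of these data known. Named genes are all non-clustered and C-type genes, the 2 other isoforms with most UMIs in each family, members called, up to 3 members per direction and name whose SCA1 and WT mice did not overlap, and up to 2 such genes per list in PC. Other members appear where a count names them.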

Additional observations from a re-analysis of the deposited data

Results flagged for a closer look

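The following levels come from cell type names with too few nuclei to be tested, pooled over mice, with 95% Poisson intervals for counting error only. Each pooled value was above the pooled value of every tested name. The interval of Pcdh18 in Flt1.Lrg1 nuclei overlapped those of the Dcn.Nnat (1.24 to 6.35) and Sln nuclei (0.022 to 4.85), and Pcdh11x reached 353 CPM in the Sln nuclei of 1 mouse. Pcdh18 was at 9.83 CPM (4.49 to 18.7) in the 89 Flt1.Lrg1 endothelial nuclei, at 35.2 CPM (16.1 to 66.8) in the 25 Flt1.Mgp endothelial nuclei and at 109.9 CPM (52.7 to 202) in the 20 Kcnj8 mural nuclei. Pcdh1 was at 75.4 CPM (58.6 to 95.4) in Flt1.Lrg1, 101.6 CPM (66.4 to 149) in Flt1.Mgp, 92.0 CPM (49.0 to 157) in the 22 Flt1.Car4 endothelial and 87.9 CPM (38.0 to 173) in the Kcnj8 mural nuclei. Pcdh9 was at 19898.5 CPM (19108 to 20714) in the 13 Klk6 oligodendrocyte nuclei. In the 12 nuclei named Polydendrocyte.Tnr.Tnr, Pcdh7 was at 3881 CPM (3624 to 4152), Pcdh17 at 1438 CPM (1283 to 1606) and Pcdh11x at 344 CPM (271 to 432). The polydendrocyte-like nuclei within OL held more Pcdh11x, at 521 to 937 CPM over mice. Their Pcdh7 and Pcdh17 levels were lower, at 1585 to 2477 and 136 to 750 CPM.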

How the results depend on the processing

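In PC the count of protocadherins called, 0 in edgeR, was 1 with DESeq2 (Pcdh7), 2 without the filter on low counts and 2 with a replicate block (Pcdh7, adjusted p = 0.0096, and Pcdh10, adjusted p = 0.037). Over all genes these settings called 65, 223 and 184. DESeq2 gave no adjusted p for Pcdh10. No label says that same-numbered mice are paired, though the mice numbered 1 share an inferred run, as do those numbered 2 and 3. The correlation of their deviations in PC ran from 0.056 to 0.67, and it passed 0.1 for every pair in 6 of 13 names, so the numbers were not taken as pairs. The difference between the PC and GN effects gave 1 called member without the filter. Leaving out each mouse gave 0 called members in each of the 13 names and in the difference between PC and GN. For contrasts between names, 43.9 to 47.0% were then called, against 47.9% with all mice. These shares cover only members that passed the filter and count calls with TMM factors alone, not calls under both scalings. Many of all genes were also called in most such contrasts, as given with the levels. Clustered isoforms per GN nucleus were 0.287 at 1500 UMIs and 1.12 without thinning, and 0.546 to 0.589 with each mouse left out. Values without a call could change sign. The SCA1 minus WT difference in isoforms per nucleus went from -0.069 to 0.035 in GN without thinning, and at 1500 UMIs from -0.030 to 0.096 in PC and from -0.029 to 0.0067 in BG. The members' median log2 fold change went from -0.04 to 0.07 in OL with limma-trend and from -0.07 to 0.16 in BG without WT mouse 3. The alternative that kept only nuclei whose name led their cluster could not be run for 6 names with too few such nuclei. Depth limits single isoforms, most of which had under 10 CPM.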
